A study of Mus musculus with 6 samples.

Results

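Integrins are adhesion receptors, some of them for laminins, and laminins are built of chains and lie in the basement membrane. The 36 genes described here are all of their subunits in the annotation with a plain symbol. Such a symbol is Itga or Itgb followed by a number or a single letter, or Lama, Lamb or Lamc followed by a number. The 36 genes comprised 25 integrin genes (17 alpha and 8 beta subunits) and 11 laminin genes (5 alpha, 3 beta and 3 gamma chains) of 31053 annotated genes. Symbols with further letters, such as Itga2b and Itgb1bp1, are not among them. The data came from 6 droplet libraries of mouse lung, each with 3′ tags counted as unique molecular identifiers (UMIs). In 4 of the libraries, cells carrying the Cxcl12-DsRed reporter were sorted from Cxcl12DsRed/+ lungs of 4 ages (the embryonic days E13.5 and E15.5, then E18.5, and lastly postnatal day 8, P8), against CD45 (leukocytes) and EpCAM (epithelium) and for CD31 (endothelium), and the methods also describe a CD31-negative reporter-positive, mesenchyme-enriched fraction. The other 2 libraries held unsorted cells of E18.5 lungs, one labelled Cxcl12DsRed/DsRed (null) and one Cxcl12DsRed/+ (control).

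All animals carried at least 1 DsRed allele, which is a knock-in into exon 1 of Cxcl12 and removes that copy of the gene, so no library here is wild type. The sort follows Cxcl12 activity, so the sorted endothelial cells are those with reporter at each age rather than the whole endothelium, and lungs of several animals were mixed for each time point. Each condition had 1 library. No p-value, standard error or test between conditions can therefore be given, and the intervals printed are 95% Poisson or exact binomial intervals that cover counting error only.

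The targeted gene went against the labels of the whole lungs. Cxcl12 stood at 576 CPM (UMIs per 1000000 UMIs of the group) in endothelial cells of the library labelled null and at 5.37 CPM in those of the library labelled control, and at 2163 and 40.9 CPM in the endothelial cells that passed the Gja4 gate described below. Groups below follow the labels, so each of these libraries is called the library labelled null or the library labelled control, and any direction between them rests on labels that the targeted gene contradicts. The names of the deposited files also give these libraries the opposite genotypes to their labels.

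Integrins are receptors of 1 alpha and 1 beta subunit that span the membrane and tie the matrix to actin. Itgb1 pairs with most of the alpha subunits: with Itga1 and Itga2 it binds collagens, with Itga3, Itga6 and Itga7 it binds laminins, with Itga5 it binds fibronectin, with Itga8 it binds nephronectin and with Itga9 tenascin. Itgav pairs with Itgb1, Itgb3, Itgb5, Itgb6 or Itgb8, and the Itgb2 and Itgb7 dimers belong to leukocytes. A laminin is a trimer of 1 alpha, 1 beta and 1 gamma chain, and integrins bind it mainly through the alpha chain. Vessels are known for trimers with Lama4 or Lama5, and epithelium for trimers with Lama3 or Lama5.

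Cells were sorted into classes by UMIs of a few gate genes that are not among the 36 (Pecam1 and Cdh5 for endothelium, Col1a1 and Col3a1 for mesenchyme, and in whole lungs Epcam, Cdh1 and Nkx2-1 for epithelium and Ptprc and Laptm5 for immune cells). In order of age the sorted libraries held 173, 9019, 9042 and 8227 endothelial cells, and 11266, 2060, 283 and 68 mesenchymal cells. The E13.5 library was therefore largely mesenchymal although the paper describes a CD31-positive sort for the time points, and its endothelial values rest on the 173 cells. The libraries labelled null and control held 2630 and 1715 endothelial, 4499 and 4256 mesenchymal, 418 and 654 epithelial and 646 and 640 immune cells. Libraries totalled 63746333 to 117522172 UMIs, and any 2 of them shared 17 to 50 cell barcodes, at most 0.429% of the smaller library. The mesenchymal markers that the gates did not use were 8, with Fbn1 among them, which the paper also lists for an arterial endothelial group. These markers stood in endothelial cells at 10.9%, 1.73%, 2.27% and 0.549% of their mesenchymal level, in order of age. In the same cells 8 early-response and heat-shock genes summed to 656, 1013, 4912 and 9880 CPM, so these genes were higher at each later age. The part of either in the values below was not tested.

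A 3′ tag is counted once per transcript, so CPM of different genes are compared below without division by length. Of the 36 genes, 31 reached 10 CPM in at least 1 class of 1 library, and the other 5 (Itgad, Itgae, Itga10, Itga11 and Lama1) stayed under 10 CPM in each class, at no more than 7.09 CPM. In endothelial cells 18 reached 10 CPM. The highest level of the 31 genes fell in endothelial cells for 8, in mesenchymal cells for 11, in epithelial cells for 6 and in immune cells for 6. Of the 8, Itga5, Itgb4 and Lamc3 were placed there by the 173 cells of E13.5, on 127, 27 and 44 UMIs.

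The genes lie on 14 chromosomes of the mm10 build (GENCODE vM21 positions), with 8 pairs within 1 Mb of each other. The collagen receptor genes Itga1 (chromosome 13, 114953096 to 115101964) and Itga2 (114833081 to 114932100), both on the minus strand, are 21.0 kb apart, yet their patterns separated by cell class, as described below. The leukocyte genes Itgam, Itgax and Itgad form a run on the plus strand of chromosome 7, with 11.1 kb between Itgam and Itgax and 3.7 kb between Itgax and Itgad. Itgam and Itgax were both highest in immune cells, and Itgad was under 10 CPM everywhere. Same-strand exons of another annotated gene overlap 4 of the 36 (Itga1, Itgad, Itgam and Itga10), so their tags can be split or lost in counting.

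Among receptors of the endothelium, Itgb1 led at every age. It stood at 639, 505, 589 and 713 CPM in order of age, more than 3 times any alpha subunit in the same library. The alpha subunits beside it changed their order with age. At E13.5 the fibronectin receptor Itga5 led the alpha subunits with 102 CPM (95% interval 84.9 to 121), at E15.5 and E18.5 the laminin receptor Itga6 led with 75.7 and 190.2 CPM, and at P8 the collagen receptor Itga1 (192 CPM) and Itga6 (185 CPM) stood side by side. Within the Gja4 gate described below, which held 158 of the 173 cells of E13.5 and 5408 of the 9019 of E15.5, Itga5 was still above Itga6 at E15.5, with 65.7 and 50.2 CPM, and below it at E18.5, with 82.7 and 139 CPM. As a share of all UMIs of the 17 alpha genes, Itga5 made up 37.0% (31.9 to 42.4), 20.8%, 13.9% and 8.84% at the 4 ages, while Itga1 made up 6.12% at E13.5 and 34.6% at P8. The summed level of the alpha genes was 275, 271, 461 and 553 CPM.

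In each comparison a gene was tested when its mean was at least 10 CPM, and called when it was past 2-fold after adding 1 CPM to both levels. Between E13.5 and E15.5, 16 of the 36 genes were tested, none was called higher and 2 were called lower, where 2.25% of all 7912 genes were called higher, 2.55% lower and 4.8% in either direction. Itgb4, the partner of Itga6 in hemidesmosomes, stood at 21.6 and 8.99 CPM, a ratio of 2.41-fold (1.58 to 3.53) lower at E15.5. Lamc3, a gamma chain, stood at 35.3 and 14.3 CPM and was 2.46-fold (1.78 to 3.32) lower. Their E13.5 values rest on 27 and 44 UMIs, and the 2 calls became between 1 and 4 under other settings. Within the Gja4 gate, with the cell numbers given above, Itgb4 stood at 23.7 and 14.5 CPM and Lamc3 at 37.4 and 23.5 CPM, so both stayed within 2-fold there. The median change of the 16 genes was −0.34 on the log2 scale, and that of all genes −0.07.

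Between E15.5 and E18.5, 6 of 18 tested genes were called higher and none lower, where 8.26% of all genes were called higher, 3.97% lower and 12.2% in either direction. The 6 were the receptors Itga3, Itga4, Itga6 and Itgb5 and the laminin chains Lama5 and Lamb2. Itgb5, a partner of Itgav that binds vitronectin, had the widest ratio of them, from 1.94 to 37.0 CPM (19.1-fold, 16.4 to 22.5). Its log2 ratio of 3.69 became 2.74 with cells past several class gates kept and 2.60 with a pseudocount of 5 CPM. Itga3, a laminin receptor, went from 4.81 to 24.2 CPM (5.04-fold, 4.52 to 5.63).

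Lama5 went from 12.9 to 43.1 CPM (3.33-fold, 3.11 to 3.57) and Lamb2 from 20.7 to 46.3 CPM (2.24-fold, 2.11 to 2.38). Endothelial cells of the unsorted lungs, also of E18.5, held Lama5 at 7.58 CPM (labelled control) and 18.6 CPM (labelled null). Its level at E18.5 was therefore not above that of E15.5 in every library. Itga6 went from 75.7 to 190.2 CPM (2.51-fold, 2.44 to 2.59). Itga4, which binds fibronectin and VCAM1, went from 13.8 to 30.6 CPM (2.21-fold, 2.05 to 2.38). All genes tested had a median change of 0.18 on the log2 scale here and the 18 subunit genes 0.50. Centring on the median of all genes lowers the share of calls that are higher from 67.5% to 51.0% and leaves 4 of the 6 genes called, with Itga4 at 0.91 and Lamb2 at 0.95 on the log2 scale. A pseudocount of 5 CPM leaves 4 as well, with Itga4 at 0.92 and Lamb2 at 0.9991. These 2 libraries also differ in how many of their endothelial cells passed the capillary gates, given below, and in the sums a change in cell make-up and a change within cells cannot be told apart.

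Within the Gja4 and Gpihbp1 gates taken alone, which are described below, the 6 genes kept their direction. Itgb5 went from 0.94 to 31.8 CPM in the Gpihbp1 gate and from 2.61 to 6.66 CPM in the Gja4 gate, so its change was larger in the capillary gate. Lama5 went from 6.13 to 31.8 CPM and from 16.8 to 52.5 CPM, and Lamb2 from 8.73 to 23.9 CPM and from 28.4 to 70.5 CPM. In the unsorted E18.5 lungs labelled control and null, Lama5 stood at 3.33 and 12.7 CPM in the Gpihbp1 gate. In their Gja4 gate Lama5 stood at 32.4 and 30.1 CPM. Itga3 went from 6.76 to 32.8 CPM and from 3.37 to 9.83 CPM. Itga6 went from 129 to 250.2 CPM and from 50.2 to 139 CPM, and Itga4 from 24.3 to 44.9 CPM and from 8.26 to 14.7 CPM, so Itga4 stayed within 2-fold in each gate and Itga6 in the Gpihbp1 gate.

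Between E18.5 and P8 most calls were in the other direction: 1 of 15 tested genes was called higher and 4 lower, where 3.71% of all genes were called higher, 3.41% lower and 7.12% in either direction. Itga1 was the one higher, from 56.0 to 192 CPM (3.42-fold, 3.29 to 3.56). The laminin chains Lamb1 and Lama4 were among the lower, Lamb1 from 54.5 to 10.5 CPM (5.18-fold lower, 4.76 to 5.65) and Lama4 from 60.1 to 21.2 CPM (2.83-fold lower, 2.66 to 3.02). Itga4 went from 30.6 to 11.9 CPM (2.56-fold lower, 2.35 to 2.79), and Itgb5 from 37.0 to 15.4 CPM (2.41-fold lower, 2.23 to 2.60). Both had been called higher at E18.5 than at E15.5, so E18.5 was the highest of the 4 ages for each. Within the Gpihbp1 gate all 5 were past 2-fold in the same direction, with Itga1 going from 76.1 to 179 CPM, Lamb1 from 88.0 to 20.4, Lama4 from 81.7 to 25.4, Itga4 from 44.9 to 13.6 and Itgb5 from 31.8 to 4.89. Within the Gja4 gate Itga1 went from 35.3 to 108 CPM, Lamb1 from 29.2 to 11.2, Itga4 from 14.7 to 1.86 and Itgb5 from 6.66 to 1.51, while Lama4 went from 48.4 to 32.8 CPM and stayed within 2-fold. The gates taken alone held unlike parts of the cells past each gene. For Gpihbp1 they held 1747 of 4176 cells at E18.5 and 933 of 6062 at P8, and for Gja4 3704 of 5902 and 1513 of 6338. With cells past several gates kept, Itgb5 went from 42.8 to 15.4 CPM in the Gpihbp1 gate.

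Some subunits were past 2-fold at no step. Itga2, the other collagen receptor, stayed between 47.3 and 61.7 CPM, and Itgav between 14.2 and 22.4 CPM. Lamc1, the gamma chain of most trimers, went from 40.1 to 65.8, 106 and 70.7 CPM.

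**Figure D1:**
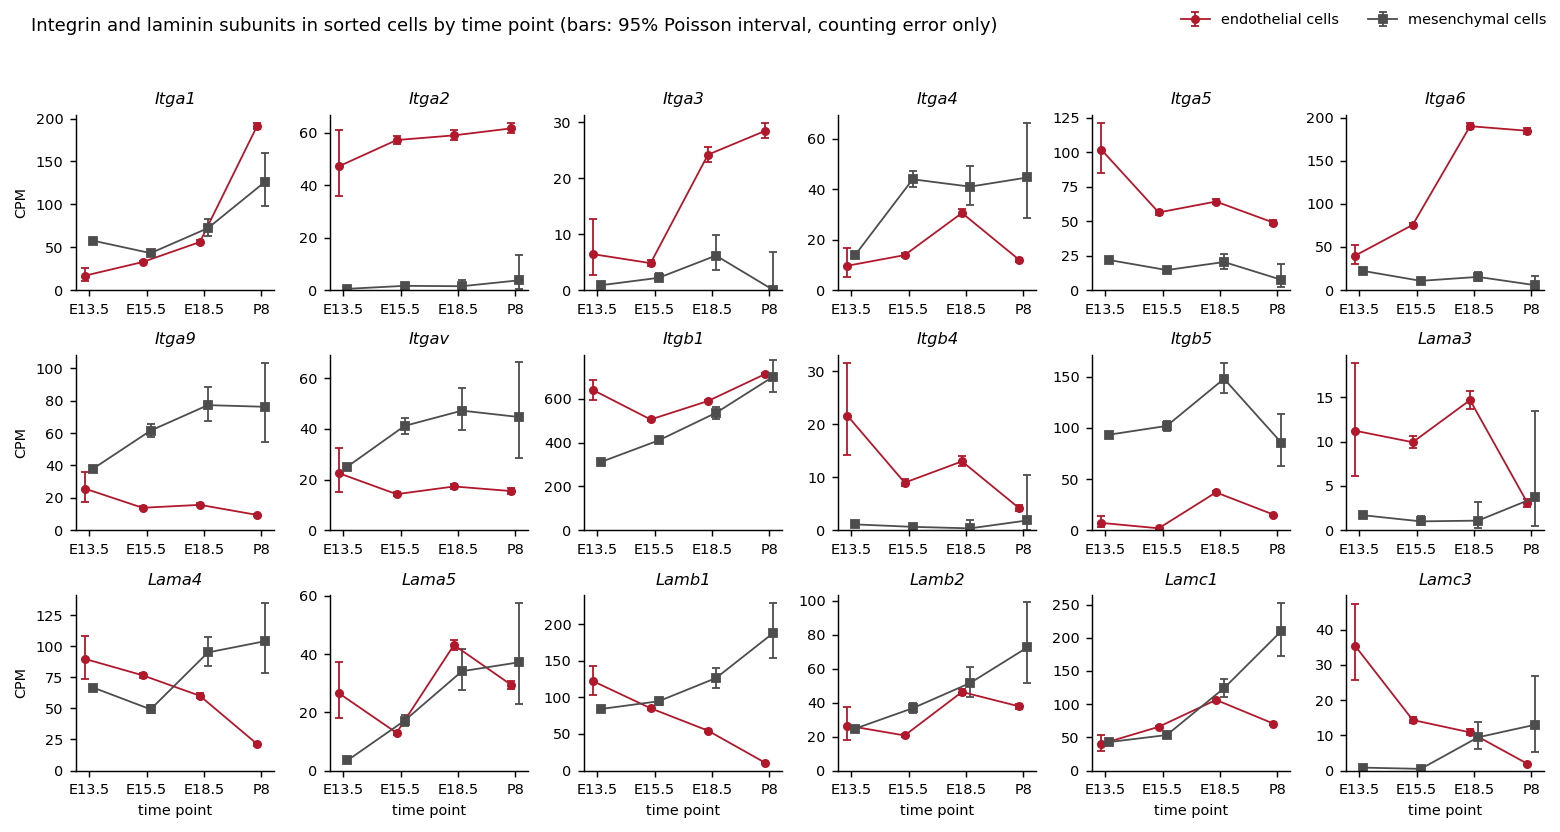
CPM of the 18 genes that reached 10 CPM in endothelial cells, in endothelial (red circles) and mesenchymal cells (grey squares) of the 4 sorted libraries by time point, with 95% Poisson intervals and lines that only join the points. Itga1 reached 192 CPM in endothelial cells at P8, Lamb1 ended at 10.5 CPM there while its mesenchymal level was 188 CPM, and the E13.5 endothelial intervals are wide because 173 cells stand behind them.

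The laminin beta chains of the endothelium exchanged places. In order of age Lamb1 stood at 122, 85.0, 54.5 and 10.5 CPM and Lamb2 at 26.5, 20.7, 46.3 and 37.8 CPM. Lamb2 therefore made up 17.8% (12.6 to 24.1), 19.6% (18.8 to 20.4), 45.9% (44.7 to 47.2) and 78.2% (76.7 to 79.7) of the UMIs of the pair. In mesenchymal cells of the same libraries the share was 22.7%, 28.0%, 29.0% and 27.9%, with intervals between 20.6 and 36.1 at all 4 ages. So in the sorted libraries the share of Lamb2 was above the mesenchymal one at E18.5 and P8 and below it at E15.5, each time outside counting error. Whole lungs of E18.5 had lower endothelial shares. In the library labelled control it was 25.8% (23.9 to 27.9) beside 25.5% (24.6 to 26.4) in mesenchymal cells, within counting error. In the library labelled null it was 30.1% (28.4 to 31.9) beside 24.8% (24.0 to 25.7).

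The alpha chains went the same way in endothelial cells. Lama5 stood at 26.5, 12.9, 43.1 and 29.4 CPM and Lama4 at 89.8, 76.7, 60.1 and 21.2 CPM. The Lama5 share of the pair was 22.8%, 14.4%, 41.8% and 58.1% from E13.5 to P8. In mesenchymal cells it was 4.92% at E13.5 and 25.8%, 26.4% and 26.3% after that, and in mesenchymal cells of the whole lungs it was 5.99% (labelled control) and 8.06% (labelled null). In endothelial cells of the whole lungs, also of E18.5, it was 6.04% (4.99 to 7.23) and 18.5% (17.0 to 20.1) in the same order, well under the 41.8% of the sorted library of that age. The sum of all laminin alpha genes in endothelial cells was 129, 102, 122 and 56.5 CPM, and that of the beta genes 150, 107, 102 and 48.9 CPM, so both were lowest at P8. Under 6 other ways of choosing or summing cells, the endothelial Lamb2 share at P8 was 77.3% to 79.9%, and the Lama5 share 57.3% to 58.0%. The mesenchymal Lama5 share was lower when cells were thinned to equal depth before gating, at 2.01% in E13.5 and 17.0% in E15.5.

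Of the gamma chains Lamc3 was, in the endothelial sums, a part that became smaller beside Lamc1. There it made up 46.8% (36.4 to 57.4), 17.9% (17.0 to 18.8), 9.24% (8.57 to 9.95) and 2.65% (2.20 to 3.17) of Lamc1 and Lamc3 UMIs in endothelial cells. In mesenchymal cells it made up 1.89%, 0.88%, 7.07% and 5.83%, so the endothelial share was the higher at E13.5 and E15.5, outside counting error, and at E18.5 and P8 the intervals overlapped. At E15.5 Lamc3 was a gene of the Gja4 gate, at 23.5 CPM beside 0.63 CPM in the Gpihbp1 gate, and at E18.5 the gates stood at 11.3 and 8.25 CPM. The fall did not hold in the Gpihbp1 gate at that step, where the Lamc3 share went from 0.92% (0.40 to 1.81) to 7.10% (5.76 to 8.65), and then to 1.45% at P8. In the Gja4 gate it was 46.6%, 27.3%, 11.0% and 6.56% in order of age.

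**Figure D2:**
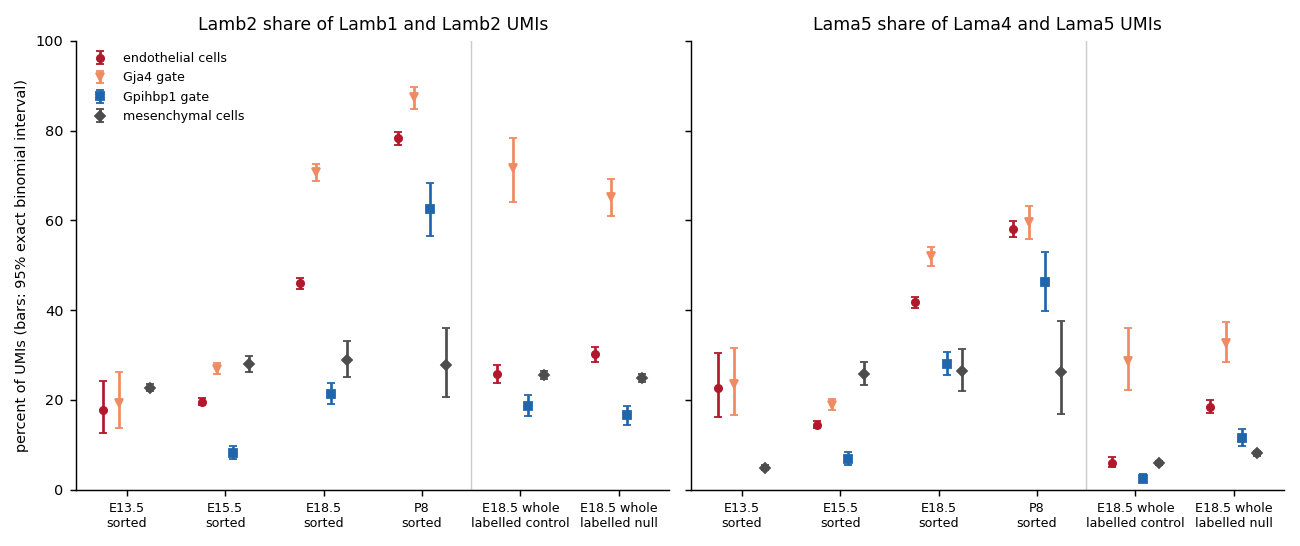
Share of Lamb2 among Lamb1 and Lamb2 UMIs (left) and of Lama5 among Lama4 and Lama5 UMIs (right), in percent with 95% exact binomial intervals, for endothelial cells, their Gja4 and Gpihbp1 gates and mesenchymal cells of the 6 libraries. In the sorted libraries endothelial Lamb2 made up 45.9% (E18.5) and 78.2% (P8), the Gja4 gate lay above the Gpihbp1 gate wherever both could be measured, and the mesenchymal share of Lamb2 stayed between 22.7% and 29.0%.

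Endothelial cells were then split by 2 or more UMIs of Gja4 (a connexin of arterial endothelium), Gpihbp1 (the lipase anchor of capillary endothelium) or Car4 (a carbonic anhydrase of alveolar capillaries), and cells past more than 1 of these gates were set aside. At E18.5 the Gja4, Gpihbp1 and Car4 gates alone held 3704, 1747 and 265 cells with 2501 set aside, and at P8 they held 1513, 933 and 223 cells with 5192 set aside, 4762 of the P8 endothelial cells being past both the Gja4 and the Gpihbp1 gate. At E15.5 the gates held 5408, 1084 and 3 cells. The 8 mesenchymal markers were at 4.75% of their mesenchymal level in the Gja4 gate of E18.5 and at 0.326% in its Gpihbp1 gate. At P8 these were 1.76% and 0.259%, and their part in the contrasts was not tested. Fbn1, which is among the 8, was itself called higher in the Gja4 than in the Gpihbp1 gate at both ages. The paper lists it for arterial endothelium, so these percentages do not measure mesenchymal RNA alone.

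In the Gja4 gate, 2 of 13 tested genes were called higher than in the Gpihbp1 gate in both E18.5 and P8 and none lower, where 3.16% of all genes were called higher, 3.68% lower and 6.84% in either direction. For Itga9 the E18.5 gates gave 24.8 and 6.34 CPM (3.90-fold, 3.04 to 5.08) and the P8 gates 37.1 and 4.27 CPM (8.67-fold, 5.57 to 14.2). For Lamb2 they gave 70.5 and 23.9 CPM (2.95-fold, 2.59 to 3.37) and then 77.1 and 34.0 CPM (2.27-fold, 1.91 to 2.71). Neither gene was called when cells past several gates were counted in each of them, where the 4762 cells entered both sides at P8. Itga9 then remained past 2-fold in both, with 18.6 and 8.29 CPM in the E18.5 gates and 10.1 and 4.36 CPM in the P8 gates, but its P8 mean of 7.23 CPM was under the minimum of 10. Lamb2 came within 2-fold, at 1.86-fold and 1.27-fold. After thinning to equal depth Itga9 was called, and Lamb2 was not, with log2 ratios of 1.45 and 0.95. Itga4 and Itgb5 were past 2-fold lower in the Gja4 gate at both ages, but were not tested because their P8 means were under 10 CPM. Itga4 stood at 14.7 against 44.9 CPM at E18.5 and 1.86 against 13.6 CPM at P8. Itgb5 stood at 6.66 against 31.8 CPM and 1.51 against 4.89 CPM. Itga3, which was tested, stood at 9.83 against 32.8 CPM and 13.2 against 27.1 CPM, and was called lower with a pseudocount of 0.1 CPM.

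Itgb4 and Lama3, better known from epithelium, were also found in the Gja4 gate. In the last 3 sorted libraries Itgb4 stood there at 14.5, 29.1 and 18.4 CPM, and at 0.31, 1.36 and 1.63 CPM in the Gpihbp1 gate. Lama3, a laminin alpha chain of epithelium, stood at 15.9, 31.1 and 15.2 CPM in the Gja4 gate and at 0.71, 1.54 and 0.81 CPM in the Gpihbp1 gate. The groups were far apart in all 3 libraries, but at P8 the mean of the gates was under 10 CPM, so neither was among the 13 tested genes. The summed epithelial markers were also higher in the Gja4 than in the Gpihbp1 gate of these libraries, at 76.6 and 3.38 CPM, 122 and 54.2 CPM, and 116 and 57.2 CPM in order of age, and their part in the contrast was not tested.

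The whole lungs showed the same order. Itgb4 stood at 33.1 and 1.38 CPM in the Gja4 and Gpihbp1 gates of the library labelled control and at 30.1 and 1.67 CPM in the library labelled null. Lama3 stood at 37.0 and 1.38 CPM and at 30.9 and 1.67 CPM. Lamb3, a beta chain found with Lama3 in epithelium, was between 0.11 and 0.84 CPM in these 4 groups. In the sorted E15.5 library it followed the gate too, with 110 UMIs (2.32 CPM) in the Gja4 gate and 0 UMIs in the Gpihbp1 gate, which allows up to 0.236 CPM. In the sorted E18.5 library the gates gave 1.25 and 0.45 CPM. Those of P8 gave 1.28 and 1.42 CPM, with overlapping intervals. In the whole lungs the 7 epithelial markers that were not gate genes stood in the Gja4 gate at 1.77% of their epithelial level in the library labelled control and at 1.36% in the library labelled null, beside 0.192% and 0.228% in the Gpihbp1 gates. Mesenchymal markers, again with Fbn1 among them, stood in these Gja4 gates at 7.41% and 6.45% of their mesenchymal level. The mesenchymal cells of these libraries themselves held Itgb4 at 1.44 and 0.94 CPM and Lama3 at 0.43 and 0.52 CPM. The part of either marker set in the gate values was not tested.

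Lamb2 followed the Gja4 gate in whole lungs as well. It made up 71.6% (64.2 to 78.3) of Lamb1 and Lamb2 UMIs in the Gja4 gate of the library labelled control and 18.7% (16.5 to 21.0) in its Gpihbp1 gate. In the library labelled null it made up 65.2% (60.9 to 69.3) and 16.5% (14.5 to 18.7). The sorted E18.5 library gave 70.7% (68.8 to 72.6) and 21.4% (19.1 to 23.8). The Lama5 share differed more between libraries, at 52.0% in the Gja4 gate of the sorted E18.5 library and 28.7% and 32.7% in those of the libraries labelled control and null. In the Gpihbp1 gate it was 28.0% (25.5 to 30.6), 2.43% (1.63 to 3.47) and 11.6% (9.76 to 13.6) in the same order.

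The Car4 gate differed from the Gpihbp1 gate at 4 of 14 tested genes in both E18.5 and P8, 2 higher and 2 lower, where 2.42% of all genes were called higher, 3.44% lower and 5.85% in either direction. Itgb5 was higher, at 322 against 31.8 CPM in the E18.5 gates (10.1-fold, 8.77 to 11.7) and 115 against 4.89 CPM in the P8 gates (23.6-fold, 15.2 to 38.0). Itga3 was higher, at 109 against 32.8 CPM (3.34-fold, 2.74 to 4.05) and at 128 against 27.1 CPM (4.73-fold, 3.73 to 6.003). So a vitronectin and a laminin receptor subunit were high in the cells with Car4 at both ages.

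Lama4 was lower in the Car4 gate, at 21.2 against 81.7 CPM in the E18.5 gates (3.86-fold, 2.67 to 5.80) and 5.67 against 25.4 CPM in the P8 gates (4.48-fold, 2.11 to 11.4). Itga5 was lower as well, at 22.6 against 48.5 CPM (2.14-fold, 1.49 to 3.19) and at 15.4 against 47.0 CPM (3.05-fold, 1.91 to 5.16). When cells past several gates were kept in each, 1 of the 4 calls remained, that of Itgb5, whose log2 ratios of 3.30 and 4.30 became 2.07 and 1.35. Cells thinned to equal depth gave Itga5 and Lama4 −0.81 and −0.85 on the log2 scale in P8, and neither was called then. Itga5, whose Car4 values rest on 31 and 19 UMIs, was also not called with stricter gates or a pseudocount of 5 CPM. Its E18.5 log2 ratios were then −0.98 and −0.95. Lamb1 was called lower in the Car4 gate after thinning, with stricter gates and with the mean of per-cell CPM. Itga6 was not called over both ages, at 141 against 250.2 CPM at E18.5 and 25.1 against 213 CPM at P8. In the whole lungs the Car4 gate held only 14 and 36 cells, with Itgb5 at 193 CPM in the library labelled control and 187 CPM in the library labelled null, beside 22.0 and 17.6 CPM in the Gpihbp1 gates.

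**Figure D3:**
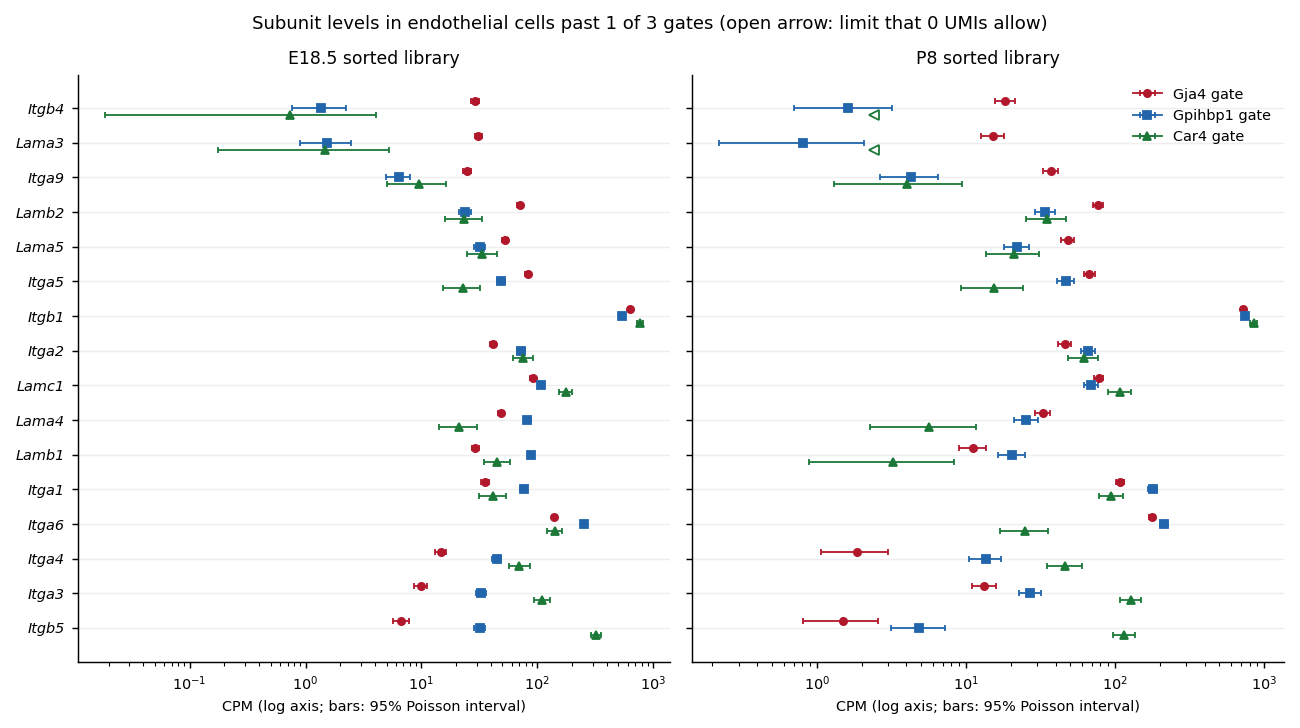
CPM (log axis) of 16 integrin and laminin genes in endothelial cells past the Gja4 (red circles), Gpihbp1 (blue squares) or Car4 gate alone (green triangles) in the sorted E18.5 and P8 libraries, with 95% Poisson intervals and open arrows for the limit that 0 UMIs allow. Itgb4, Lama3, Itga9, Lamb2, Itga5 and Lama5 are among the genes that lie furthest right in the Gja4 gate at both ages. Itga3 and Itgb5 are among those that lie furthest right in the Car4 gate.

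In the E15.5 library, which held enough of both classes to compare them within 1 library, 6 of 16 tested genes were higher in mesenchymal than in endothelial cells and 3 lower, where 11.8% of all genes were called higher, 10.1% lower and 22% in either direction. Itgb5 (102 and 1.94 CPM, 52.6-fold, 45.0 to 61.9) and Itga8 (40.0 and 0.92 CPM, 43.3-fold, 34.4 to 55.2) had the widest ratios. Lama2, the alpha chain of muscle laminins, stood at 24.4 and 1.15 CPM (21.3-fold, 17.1 to 26.7). Itga9, Itga4 and Itgav were higher by 4.43-fold, 3.17-fold and 2.89-fold. With cells past several class gates kept, the log2 ratio of Itgb5 went from 5.13 to 3.89 and that of Itga8 from 4.41 to 3.496, and after thinning Itga4 came within 2-fold at 0.88.

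The 3 lower genes were receptors. Itga2 stood at 57.2 CPM in endothelial and 1.60 CPM in mesenchymal cells (35.9-fold lower, 24.6 to 54.5, a log2 ratio of −4.49 that became −2.37 with those cells kept), while its neighbour Itga1 stood at 32.6 and 43.0 CPM. Itga6 was 7.11-fold (6.13 to 8.29) and Itga5 3.88-fold (3.42 to 4.43) lower in mesenchymal cells. Itgb1 was within 2-fold, at 505 CPM in endothelial and 410 CPM in mesenchymal cells. Itga2 was the more restricted of the collagen receptors in all 6 libraries, since its mesenchymal level never passed 4.14 CPM.

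From E13.5 to E15.5, mesenchymal cells had 2 of 16 tested genes higher and 1 lower, where 5.77% of all genes were called higher, 3.29% lower and 9.06% in either direction. Mesenchymal cells were 88.5% of the kept cells of the E13.5 library and 17.7% of those of the E15.5 library. Age and the unlike make-up of these sorts therefore cannot be told apart. Lama5 went from 3.45 to 17.1 CPM (4.96-fold, 4.22 to 5.84) and Itga4 from 13.99 to 43.9 CPM (3.14-fold, 2.87 to 3.44). Itgb8, an activator of latent TGF-beta with Itgav, went from 15.8 to 6.50 CPM (2.42-fold lower, 1.995 to 2.97). Lama5 was not called with mixed cells kept, after thinning or with stricter gates, where its mean was under 10 CPM. With a pseudocount of 5 CPM Itgb8 came within 2-fold, at −0.85 on the log2 scale. Centring on the median of all genes, which was −0.11, raises the share of calls that are higher from 63.7% to 73.7%. Mesenchymal cells of the later sorts were few, with Itga8 at 145 CPM in the 283 cells of E18.5 and 188 CPM in the 68 cells of P8. Itgb3, the other partner of Itgav for vitronectin, was highest in the mesenchymal cells of E15.5 at 11.0 CPM.

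The unsorted lungs placed the genes that the sort leaves out. Epithelial cells held the highest Lama3 and Lamb3. Lama3 stood at 74.6 and 44.9 CPM in epithelial cells of the libraries labelled control and null, and Lamb3 at 61.2 and 45.1 CPM. In mesenchymal and immune cells neither of them passed 1.22 CPM. Lama5 was also highest in epithelial cells, at 126 and 79.9 CPM. Among receptors, Itgb6, which with Itgav activates latent TGF-beta in epithelium, stood at 17.5 and 27.5 CPM there and at most at 0.15 CPM in the other classes of these libraries. Itga7 stood at 20.1 and 29.6 CPM.

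Immune cells held the leukocyte receptors. Itgal, the alpha chain of LFA-1, stood at 188 and 186 CPM in immune cells of the libraries labelled control and null, its partner Itgb2 at 193 and 174 CPM, and Itgam at 51.7 and 52.6 CPM. Itgax, which marks dendritic cells and some macrophages, stood at 15.2 and 10.8 CPM, and Itgb7, the partner of Itga4 in gut homing, at 12.3 and 10.5 CPM. Itga4 stood at 104 and 112 CPM there. Itgb5 reached 141 and 142 CPM in immune cells, above its mesenchymal 70.4 and 79.3 CPM. The laminin chains were low in immune cells, the highest of the 11 chains being Lamc1 at 4.51 and 5.09 CPM.

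Mesenchymal cells held the highest Lama4 (282 and 239 CPM), Lamc1 (243 and 258 CPM), Lamb1 (213 and 205 CPM) and Lama2 (48.8 and 52.8 CPM) of the 4 classes, again for the libraries labelled control and null. Their receptors Itga9 and Itga8 stood at 108 and 119 CPM and at 89.3 and 89.1 CPM. In endothelial cells Itga6 was the leading alpha subunit, at 337 and 208 CPM, followed by Itga1 at 112 and 86.2 CPM and Itga2 at 77.2 and 69.8 CPM. Itgb8 was highest in mesenchymal cells at 6.59 and 12.3 CPM. The class with the highest level was the same in both libraries for each of these genes.

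**Figure D4:**
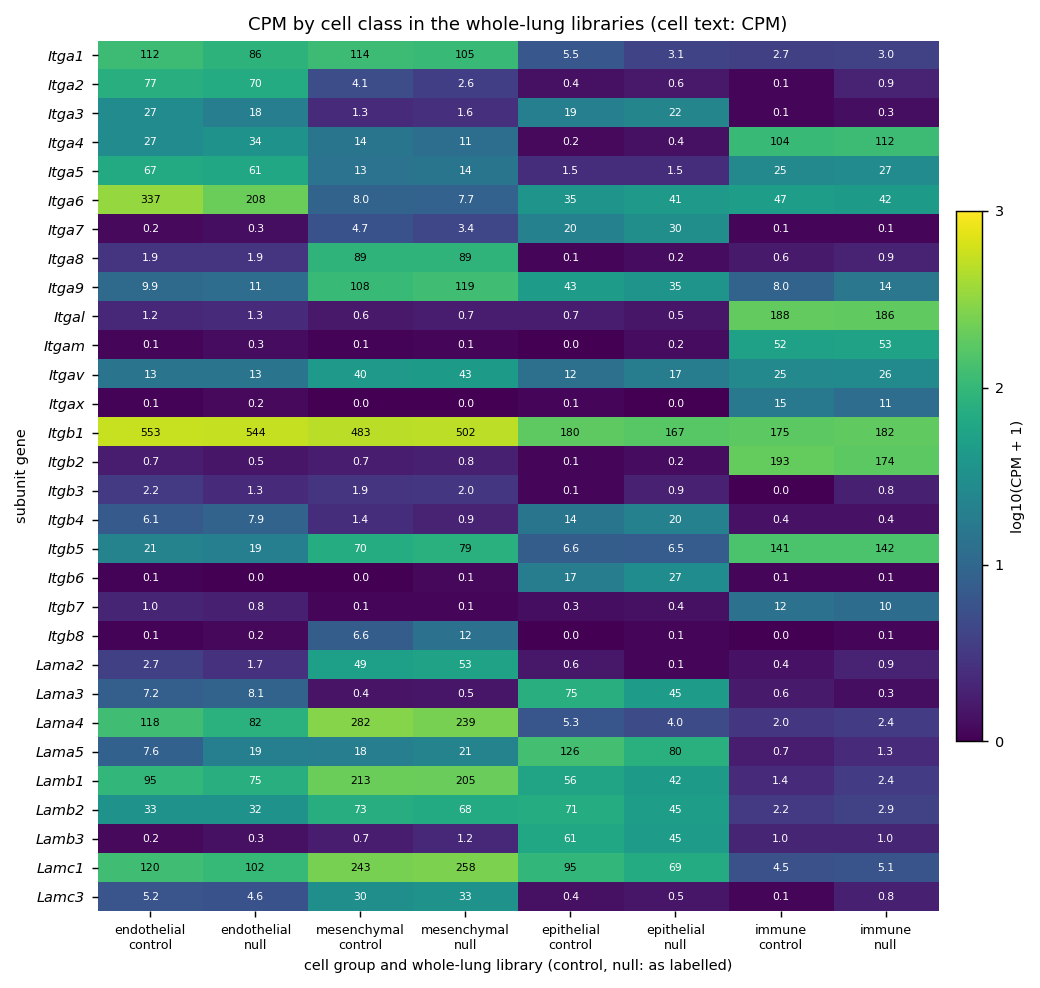
CPM (numbers in the cells, color on a log10(CPM + 1) scale) of 30 genes that reached 10 CPM, in endothelial, mesenchymal, epithelial and immune cells of the whole-lung libraries labelled control and null. Lama3, Lamb3 and Itgb6 stand out in epithelial cells, Itgal, Itgam and Itgb2 in immune cells, and Itga2 and Itga6 in endothelial cells.

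Finer cell groups were set by gates of a few genes within each class, a choice made after seeing the data, and 8 of them could be named in both libraries from separate markers. Levels are given for the library labelled control first and the library labelled null second. None of the 8 was endothelial, so genes highest in endothelium are placed here by another group. Itga6, at 337 CPM in endothelial cells of the library labelled control, falls to macrophage-like cells at 94.5 and 84.1 CPM. An adventitial fibroblast gate (75 and 215 cells) is not among the 8, and cartilage genes were among its leading genes in the library labelled control. Of the 36 genes, 24 had the same highest group of the 8 in both, at 10 CPM or more, and the share over all genes was not taken. AT1-like cells (187 and 97 cells, the flat cells of gas exchange) were highest for 7 of these. Lama5 stood there at 236 and 159 CPM, Lama3 at 194 and 127 CPM and Lamb2 at 143 and 107 CPM. Itga3, which binds their laminin, stood at 37.7 and 53.6 CPM.

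Lamb3 followed, at 118 and 89.4 CPM in AT1-like cells. In AT2-like cells (241 and 138 cells, which make surfactant) both Lama3 and Lamb3 were lower, at 79.8 and 51.3 CPM and at 66.1 and 46.9 CPM. Itgb6 separated these groups further, at 62.6 and 118 CPM in AT1-like and 5.84 and 12.2 CPM in AT2-like cells. Itga9 went the other way, at 11.4 and 17.2 CPM in AT1-like and 106 and 87.5 CPM in AT2-like cells.

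Airway groups held Itgb4 and Itga7, but neither was particular to them. Itgb4, which anchors cells through hemidesmosomes, was the highest of the 8 groups in ciliated-like cells at 60.3 and 80.1 CPM. It stood at 15.2 and 14.6 CPM in airway secretory-like cells, and at 33.1 and 30.1 CPM in the endothelial Gja4 gate of the same libraries. Itga7 was highest of the epithelial groups in airway secretory-like cells (46.9 and 71.1 CPM) and stood at 52.4 and 47.1 CPM in smooth muscle-like cells, so that the higher of these groups was not the same in the 2 libraries.

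Mesenchymal groups split the alpha subunits between them. Itga8 marked alveolar fibroblast-like cells, at 170.3 and 160.4 CPM beside 8.35 and 11.99 CPM in myofibroblast-like cells, and Itga9 marked myofibroblast-like cells, at 219 and 267 CPM beside 16.8 and 19.3 CPM in alveolar fibroblast-like cells. Smooth muscle-like cells (60 and 65 cells) held Itga8 at 115 and 147 CPM with Itga4 at 105 and 104 CPM, and the highest Itgb1 of the 8 groups at 683 and 739.6 CPM. The laminin chains differed too, with Lamb1 at 296 and 257 CPM in alveolar fibroblast-like cells and 119.9 and 144 CPM in myofibroblast-like cells. Lamc1 went the other way, at 149.9 and 155 CPM against 356 and 414 CPM, and so did Lamc3, at 17.5 and 21.3 CPM against 49.7 and 56.6 CPM.

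A gate on the pericyte genes Higd1b, Cspg4 and Cox4i2 (184 and 211 cells) held the highest Itga1 of the finer gates, 491 and 471 CPM, above the 131 and 104 CPM of smooth muscle-like cells. Itga10, a collagen receptor of cartilage, reached 10.3 and 7.83 CPM there. The gate is left unnamed because cartilage genes such as Col2a1 and Col9a3 were among its 10 leading genes beside the pericyte ones. Macrophage-like cells (121 and 127 cells) held Itgb5 at 192 and 197 CPM, Itga6 at 94.5 and 84.1 CPM and Itgb2 at 85.0 and 75.8 CPM.

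**Figure D5:**
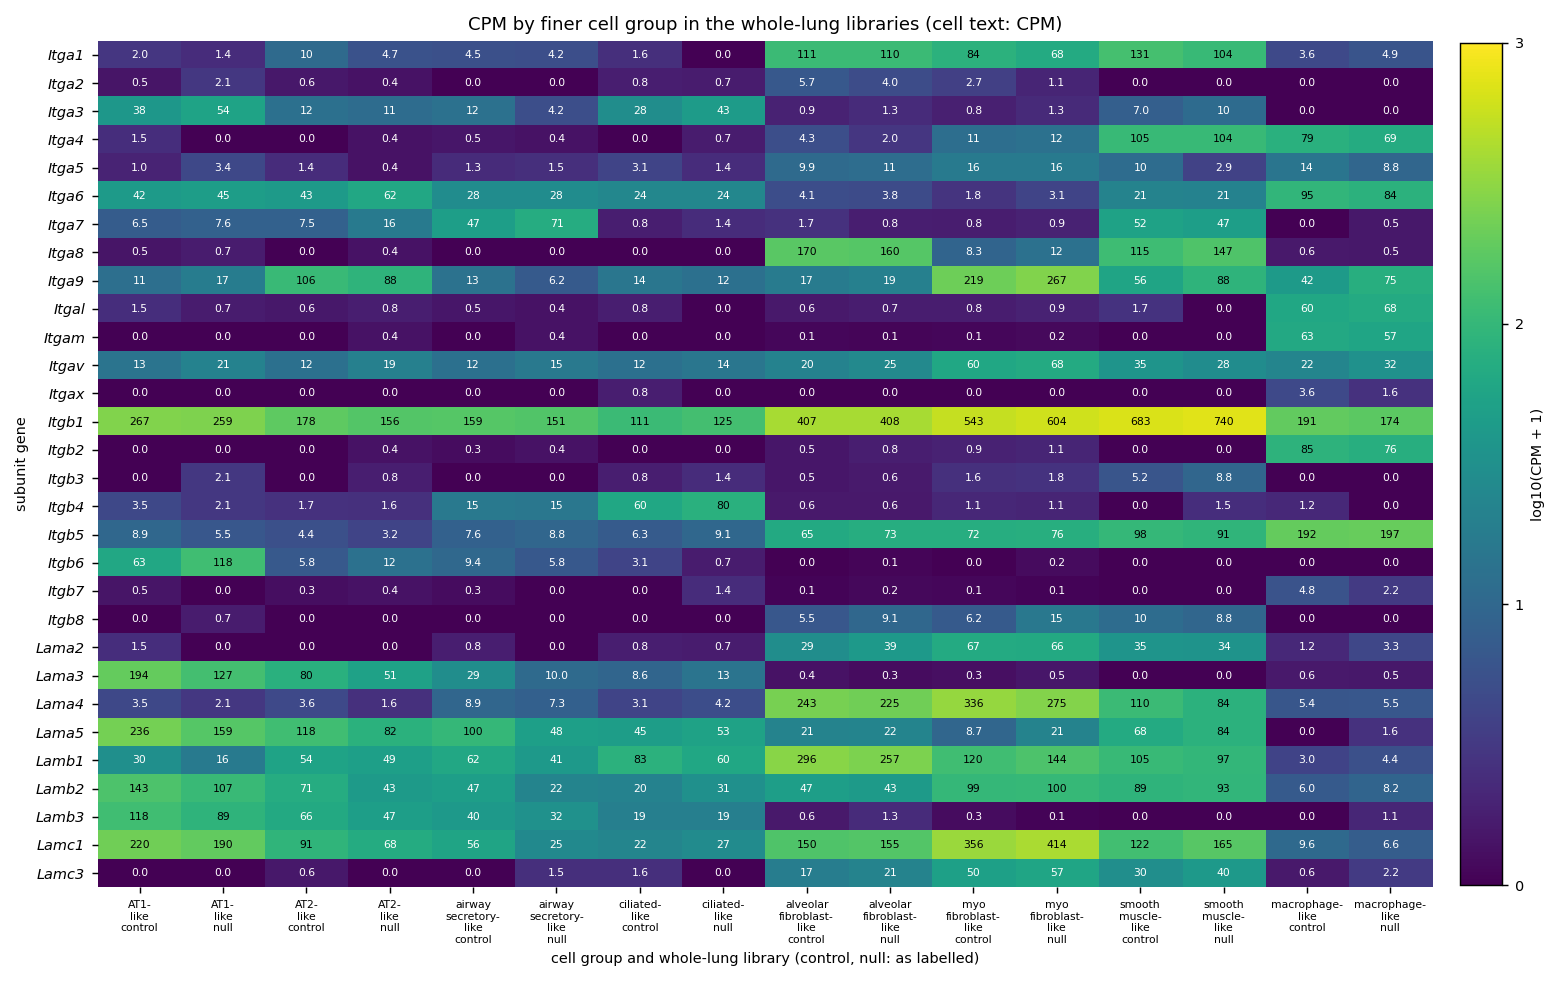
CPM (numbers in the cells, color on a log10(CPM + 1) scale) of the same 30 genes in 8 finer cell groups of the whole-lung libraries labelled control and null. Itga8 and Itga9 lie in different fibroblast groups (170.3 CPM in alveolar fibroblast-like and 219 CPM in myofibroblast-like cells of the library labelled control), and Lama3, Lama5 and Lamb3 are highest in AT1-like cells.

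The library labelled null was compared with the library labelled control within each class, which asks whether loss of Cxcl12 goes with other levels of these genes, with the labels contradicted as stated above. In endothelial cells 1 of 15 tested genes was past 2-fold, where 0.222% of all genes were higher, 0.209% lower and 0.431% in either direction. It was Lama5, at 18.6 CPM in the library labelled null and 7.58 CPM in the library labelled control (2.45-fold, 1.99 to 3.05). Within the Gja4 gate Lama5 stood at 30.1 and 32.4 CPM in that order, and within the Gpihbp1 gate at 12.7 and 3.33 CPM. The gates held unlike shares of the cells, with 571 of 2630 endothelial cells in the Gja4 gate of the library labelled null and 203 of 1715 in that of the library labelled control. Its log2 ratio of 1.19 became 0.48 with cells past several class gates kept, 0.84 when cells were thinned to equal depth before gating and 0.91 with a pseudocount of 5 CPM, and it was called in none of these. In the SoupX-adjusted counts, from which the authors had subtracted free RNA, the ratio was 1.70 (9.87 against 2.34 CPM), but the mean was under 10 CPM, so Lama5 was not tested. There Lamb2 was called higher (22.5 against 9.82 CPM) and Itga6 lower (239.99 against 512 CPM), and with cells past several class gates kept Itgb2 was called lower (8.62 against 18.6 CPM).

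No gene of the 36 was past 2-fold in mesenchymal cells (15 tested), epithelial cells (15 tested) or immune cells (12 tested). In epithelial cells this changed with the processing: in the SoupX-adjusted counts Lama3 was lower in the library labelled null (52.0 against 112 CPM) and Itga6 higher (35.2 against 13.6 CPM), and without the top 5% of cells by UMIs Lama3 was lower (46.8 against 95.8 CPM). Of all genes, 0.358% were higher and 0.167% lower in mesenchymal cells (0.525% in either direction), 0.337% and 0.137% in epithelial cells (0.475%) and 0.574% and 0.17% in immune cells (0.744%). Some differences were within 2-fold but outside counting error. Endothelial Itga6 stood at 208 CPM in the library labelled null and 337 CPM in the library labelled control, and epithelial Lama3 at 44.9 and 74.6 CPM. With 1 library on each side, a difference between animals and one between genotypes cannot be told apart. For this comparison the paper describes 2 lungs of each genotype, and the sample titles do not say how many lungs a library holds.

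Genes that act with the subunits were read from 3 lists. Of 20 other basement membrane genes, 12 or 13 were tested in endothelial cells at each step. From E13.5 to E15.5, Nid2 and Col15a1 were called higher and none lower, 2 of 13 where 4.8% of all genes were called in either direction. From E15.5 to E18.5, Bcam, the laminin receptor of the Lutheran group, was called higher (71.5 to 239.6 CPM) and Col18a1 lower, 2 of 12 beside 12.2% of all genes. From E18.5 to P8, Ntn4, a laminin-related netrin, was higher (11.1 to 32.6 CPM) and Nid2, Hspg2, Agrn, Col18a1 and Bcam were lower, 6 of 13 beside 7.12% of all genes. Col18a1, which carries endostatin, stood at 787, 429, 121 and 21.5 CPM in order of age.

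The collagen IV genes, which form the network that laminin is tied to, were not called at any step, with Col4a1 at 806, 820.1, 885 and 1077 CPM. By gate they differed, with Col4a1 at 343 CPM in the Gja4 gate and 1303 CPM in the Gpihbp1 gate of E18.5, beside 335 and 1268 CPM in those of P8. Of the 23 genes of the adhesion complex on the inner side of integrins, 21 were tested from E15.5 to E18.5, and 5 were called higher (Fermt3, Lims2, Tns1, Tns2 and Tns3) and none lower, where 8.26% of all genes were called higher. The list had a median change of 0.69 there, beside 0.18 for all genes. At the step before, 0 of 19 tested were called, beside 4.8% of all genes, and from E18.5 to P8, 1 of 21 was higher (Rap1a) and 1 lower (Fermt3), where 3.71% of all genes were higher and 3.41% lower.

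Of 21 other integrin ligands, 11 were tested between the Gja4 and Gpihbp1 gates, with Fn1, Fbn1, Tgfb2 and Ltbp1 higher in the Gja4 gate at both ages and Edil3 lower, where 3.16% of all genes were called higher and 3.68% lower. Fn1, the ligand of Itga5, stood at 117 and 8.16 CPM in these gates of E18.5, beside 262 and 30.9 CPM in those of P8. Itga5 itself stood at 82.7 and 48.5 CPM and at 67.4 and 47.0 CPM, within 2-fold at both ages. Between the libraries labelled null and control none of the 3 lists, with 5 to 20 genes tested in each class, had a gene past 2-fold in the 4 classes, save Col15a1 in mesenchymal cells, where 0.431% to 0.744% of all genes were called.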

How the data were processed

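Dissociated mouse lung cells were profiled with 10x 3′ v3 chemistry, 1 library for each of 6 conditions. Per the labels the authors used Cell Ranger 3.1 on mm10 and Seurat 3.2.2. The matrix headers name Cell Ranger 3.1.0 for 3 libraries and 3.0.2 for the other 3, which are sorted libraries. The version therefore differs within the sorted time series, and its part in the time steps was not tested. The authors deposited UMI counts per gene and called cell, without normalization. A second matrix of each whole lung, deposited by the authors, holds expected counts after SoupX had subtracted free RNA, with 18.5% (labelled null) and 40.0% (labelled control) fewer UMIs.

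The study's filter was applied to each cell (700 genes or more, a mitochondrial share of 0.5% to 10%). Classes needed 2 UMIs of Pecam1 and Cdh5, 5 of Col1a1 and Col3a1, 2 of Epcam, Cdh1 and Nkx2-1, or 2 of Ptprc and Laptm5, and cells past several class gates were set aside. No doublet caller was run. Raw UMIs were summed per class and given as CPM. Called means past 2-fold after adding 1 CPM, with a mean of at least 10 CPM, over all genes, and for the gates of the endothelium in the same direction at E18.5 and P8. Folds printed are ratios of CPM without that addition. Every member at 10 CPM or more could be named, and 1 of them is not reported here. Fine gates as planned named 3 cell groups. Limiting them to their lineage, which was chosen after seeing the data, named 8, and those are printed. The call rule was run on simulated counts with Poisson error alone and changes wider than 2-fold. No difference between animals or libraries was simulated, so that run cannot show how often the rule calls wrongly here. Python 3.11.15 with scipy 1.17.1 was used. Members, lists and gates were chosen with earlier results of these data known.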

Additional observations from a re-analysis of the deposited data

Results flagged for a closer look

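Of the genes at 10 CPM or more, 3 were past 2-fold in opposite directions between mesenchymal and endothelial cells in different libraries. The difference was not tested, since each library stands alone. Lamc3 was lower in mesenchymal cells at E13.5 (log2 ratio −4.31) and higher in the libraries labelled null (2.61) and control (2.32). Lama5 was lower in mesenchymal cells at E13.5 (−2.62) and higher in the library labelled control (1.15). Itga4 was higher in mesenchymal cells of the sorted libraries at E15.5 (1.60) and P8 (1.82), and lower in the library labelled null (−1.51).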

How the results depend on the processing

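Of 381 ratios of called members under the alternatives, each with its pseudocount, 289 stayed within the counting interval's width around the main ratio, 92 moved out of it and 0 changed direction. Of 114 counts of members called, 97 stayed within 1.5 times the printed count. From E13.5 to E15.5 the 2 calls became 4 with mixed cells kept, 1 with stricter gates, 4 without the top 5% of cells by UMIs, 1 with a pseudocount of 5 CPM and 4 without the filter on low values. Without that filter, counts were also 10 from E18.5 to P8, 6 for the Gja4 against the Gpihbp1 gate, 17 for mesenchymal against endothelial cells and 6 for mesenchymal cells over time. The Gja4 gate gave 0 calls with mixed cells kept and 1 with gates after thinning to 2000 UMIs, and the Car4 gate gave 1 with mixed cells kept. Between the libraries labelled null and control, endothelial calls were 0 after thinning, 2 with SoupX-adjusted counts and 0 with a pseudocount of 5 CPM, and epithelial calls were 1 without the top 5% of cells and 2 with SoupX-adjusted counts. Centring the E13.5 to E15.5 ratios moves the share of calls that are higher from 46.8% to 57.7%. Members with the same highest cell group in both whole lungs numbered 19 under the planned gates (3 groups), 20 with SoupX-adjusted counts, and 24 and 23 under the gates limited to the lineage. The 173 endothelial cells of E13.5 and the 68 mesenchymal cells of P8 limit those values. No paired analysis was possible because each condition had 1 library and no test was run.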
